A study of Schizosaccharomyces pombe with 6 samples.

Results

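The 9 genes described here encode the machinery that fission yeast (*Schizosaccharomyces pombe*) uses to find and destroy meiotic transcripts in the nucleus of growing cells. They were taken by name rather than by any measured value, and all 9 were found among the 7268 genes of the deposited count table. They are *mmi1* (SPCC736.12c), *red1* (SPAC1006.03c), *iss10* (SPAC7D4.14c), *mtl1* (SPAC17H9.02), *pab2* (SPBC16E9.12c), *pla1* (SPBC646.04), *cid14* (SPAC12G12.13c), *rrp6* (SPAC1F3.01) and *dis3* (SPBC26H8.10). RNA was sequenced in 6 libraries, 2 each of *Δsaf5*, *Δcwf12* and WT (strain 972), from untreated cells grown at 30 °C in YE5S, a rich medium, until the OD600 was 0.5. Saf5 is a methylosome subunit related to human pICln, which helps to assemble spliceosomal snRNPs, and Cwf12 belongs to the Prp19-containing complex of the spliceosome. The comparison asks whether cells that lack either splicing factor differ from WT in the transcripts of this machinery. The strain list of the study holds a *Δsaf5* strain (saf5::NatR+ leu1-32 h-) and a *Δcwf12* strain (cwf12::KanR+ leu1-32 h+) without a reporter, beside WT (972 h-), but the sample labels do not say which entries were sequenced. If these were the strains sequenced, mating type differed from WT in *Δcwf12* only, and the *leu1* marker differed in both deletions. As that is not known, neither can be told apart from the labelled deletions.

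Mmi1 is a YTH-family protein that binds the hexamer UNAAAC in meiotic mRNAs that are transcribed during vegetative growth. Iss10 ties Mmi1 to Red1, the scaffold of a nuclear complex that also contains Mtl1, an RNA helicase related to Mtr4, and together they hand the bound RNA to the exosome. The canonical poly(A) polymerase Pla1 and the nuclear poly(A)-binding protein Pab2 take part in this elimination. Cid14 is the poly(A) polymerase of TRAMP, a separate complex that feeds RNA to the exosome. Rrp6 and Dis3 are the exonucleases of the exosome, and Rrp6 is its nuclear one. During meiosis Mei2 and the noncoding RNA *sme2* (meiRNA) trap Mmi1, so that its targets accumulate.

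The values are read counts per gene, and the study describes the 2 libraries of a strain as biological replicates, although the sample labels do not say that they came from separate cultures, so that p-values measure the spread between these libraries. Library totals ran from 9113139 to 12054198 counts, and 6018 genes, including all 9 of interest, had enough reads to be tested. Levels are given in CPM, read counts scaled to a common library size with TMM factors. Genes with an adjusted p under 0.05 were taken as changed (edgeR's quasi-likelihood test, Benjamini-Hochberg over all genes tested), and a minimum of 2-fold was applied as a second rule. *cwf12* was reduced to 41 and 32 counts in *Δcwf12*, against 556 and 531 in WT. *saf5* still had 220 and 249 counts in the libraries labelled *Δsaf5*, against 323 and 234 in WT (log2 fold change -0.33, standard error 0.15, adjusted p = 0.0904 in edgeR). The counts alone thus do not bear out that label, and whether the counted reads lie outside the deleted part was not tested, so directions below are those of the libraries labelled *Δsaf5*. The 6 M-type mating genes examined summed to 141 and 144 CPM in these libraries, 98.2 and 102 CPM in *Δcwf12*, and 98.8 and 95.7 CPM in WT. Both P-type genes summed to between 21.0 and 27.7 CPM in all libraries. Of the 6 M-type genes, 4 were higher in the libraries labelled *Δsaf5*, while 2 were higher and 2 lower in *Δcwf12*. Among all genes tested, 24.7% were called higher with the label *Δsaf5*, and 25.5% higher and 25% lower in *Δcwf12*. The pheromone gene *mfm2* had 9.74 and 10.1 CPM in the libraries labelled *Δsaf5* and 0.611 and 1.23 CPM in *Δcwf12*, against 9.91 and 9.77 CPM in WT. The part of mating type in the results was not tested.

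In the ASM294v3 annotation 6 of the 9 genes contain introns and 3 do not, whereas 48.3% of 5113 coding genes have at least 1. *mmi1* (chromosome III, 337088 to 340112, reverse strand) has 4 introns, a number that is reached or passed by 6.59% of coding genes. *red1* (chromosome I, 5070931 to 5073898, reverse), *pab2* (chromosome II, 1939371 to 1940788, reverse) and *pla1* (chromosome II, 928885 to 931046, forward) each have 3. *rrp6* (chromosome I, 610848 to 613338, forward) and *dis3* (chromosome II, 3970969 to 3974218, forward) each have 1. *iss10* (chromosome I, 2611026 to 2613002, forward), *mtl1* (chromosome I, 2004706 to 2008108, forward) and *cid14* (chromosome I, 321805 to 324129, forward) have none. All 15 introns lie between coding exons. Of these, 13 have a length that is not a multiple of 3, so that an unspliced copy would shift the reading frame; 32.1% of the 5185 introns of coding genes have a length that is a multiple of 3.

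**Figure D1:**
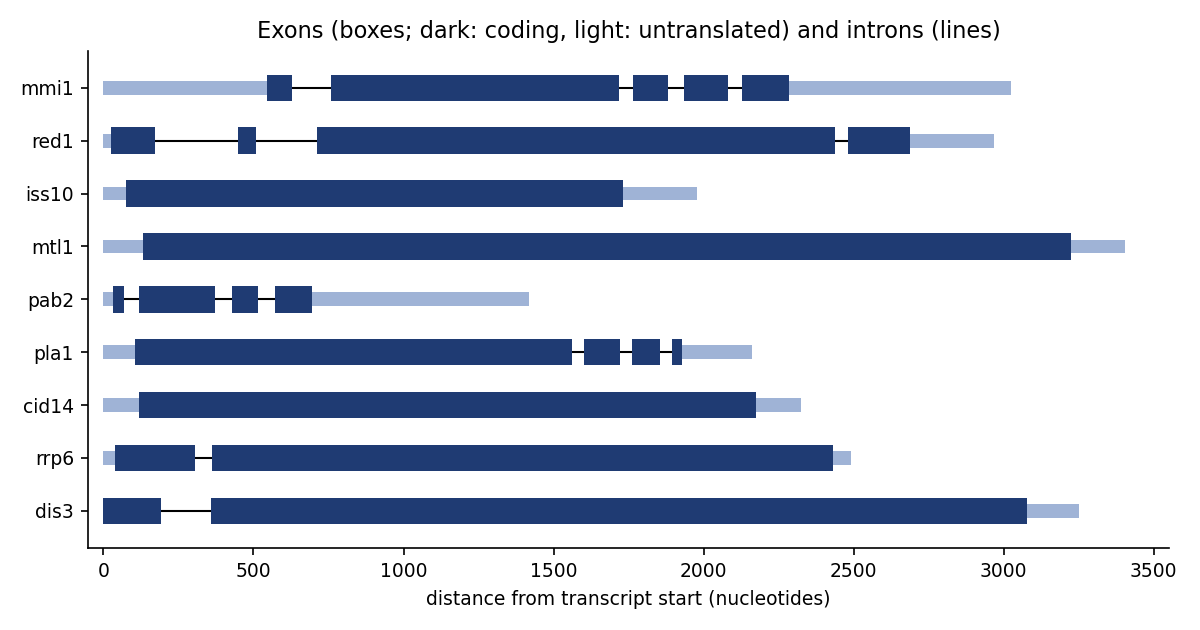
Map of the 9 genes, drawn to scale from the transcript start in nucleotides along the x axis, with exons as boxes (dark for coding, light for untranslated parts) and introns as lines. The 4 introns of *mmi1* and the 3 of *pab2* lie within the coding part, and *iss10*, *mtl1* and *cid14* are uninterrupted.

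Because both labelled deletions are of splicing factors, the introns of *mmi1* and *pab2* are shown, the genes of the 9 with the most introns and with the largest increase over WT. Sequences are from the RefSeq ASM294v3 genome, 5′ to 3′ on the coding strand. Capitals mark the first 6 bases (the 5′ splice site), the last 3 bases (the 3′ splice site) and, where present, the last match on the coding strand to the form of a fission yeast branch point. The forms searched were CTAAC and CTAAT, together with the pair that has G for the inner A, which are CTGAC and also CTGAT.
mmi1 intron 1 (chrIII:339355-339482, reverse): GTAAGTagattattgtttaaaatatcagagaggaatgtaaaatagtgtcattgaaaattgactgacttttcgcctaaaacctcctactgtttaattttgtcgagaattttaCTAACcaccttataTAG
mmi1 intron 2 (chrIII:338348-338394, reverse): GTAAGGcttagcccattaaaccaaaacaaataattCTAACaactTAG
mmi1 intron 3 (chrIII:338179-338231, reverse): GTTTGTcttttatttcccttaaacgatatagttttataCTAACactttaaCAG
mmi1 intron 4 (chrIII:337986-338029, reverse): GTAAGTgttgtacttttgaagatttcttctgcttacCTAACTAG
pab2 intron 1 (chrII:1940670-1940720, reverse): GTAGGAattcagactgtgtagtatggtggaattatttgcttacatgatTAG
pab2 intron 2 (chrII:1940361-1940415, reverse): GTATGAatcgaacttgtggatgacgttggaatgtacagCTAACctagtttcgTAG
pab2 intron 3 (chrII:1940217-1940272, reverse): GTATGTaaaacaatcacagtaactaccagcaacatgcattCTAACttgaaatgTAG
All 4 introns of *mmi1* hold CTAAC, and in the fourth it directly adjoins the 3′ splice site. A match to 1 of the 4 branch point forms was found in 11 of the 15 introns, 10 of them CTAAC, and in 76.4% of the introns of coding genes, which differ in length. In *mmi1* the first and the fourth intron start with GTAAGT, which opens 27.7% of introns, while the third starts with GTTTGT, which opens 1.56%. The first intron of *pab2* starts with GTAGGA, shared with 0.366% of introns, and has no match to the branch point forms. Rare 5′ splice sites were also present in 2 other introns of the group, which are shown for that reason.
pla1 intron 1 (chrII:930445-930487, forward): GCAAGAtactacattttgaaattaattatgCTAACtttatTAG
red1 intron 3 (chrI:5071418-5071461, reverse): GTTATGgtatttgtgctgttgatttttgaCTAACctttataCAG
GCAAGA opens no other intron of a coding gene in the annotation, and GTTATG opens 2 in all. The deposited counts are per gene and do not separate spliced from unspliced RNA.

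Per length of gene, *pab2* transcripts were the most abundant of the 9 and *mmi1* transcripts the least abundant in each of the 3 strains. Levels per kilobase were computed from CPM and the gene length listed with the counts. For *red1* this length was 3125 nucleotides, against 2446 in its annotated exons, and for *iss10*, which has no intron, 2037 against 1977. The order of genes with and without introns depends on this choice, and levels per length of exons were not computed. In WT, *pab2* had the highest level of the 9, 94.6 ± 6.91 CPM per kb (SD, n = 2), and *mmi1* the lowest, 28.2 ± 0.0111 CPM per kb. *cid14* (79.9 CPM per kb), *rrp6* (75.2), *dis3* (64.8), *pla1* (62.1), *iss10* (40.8), *mtl1* (35.3) and *red1* (35.2) lay between them in WT. Over the tested genes *pab2* stood at percentile 81.7 in WT and *mmi1* at percentile 47.4. The WT libraries of *dis3* overlapped those of *pla1*, and those of *mtl1* overlapped those of *red1*, whereas the other neighbours in this order were apart in both libraries. *pab2* also ranked first and *mmi1* last in the libraries labelled *Δsaf5* (95.9 and 27.0 CPM per kb) as well as *Δcwf12* (122.5 and 23.1 CPM per kb). *iss10* ranked sixth in the libraries labelled *Δsaf5* at 44.8 CPM per kb and eighth in *Δcwf12* at 31.1 CPM per kb, against sixth in WT at 40.8.

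**Figure D2:**
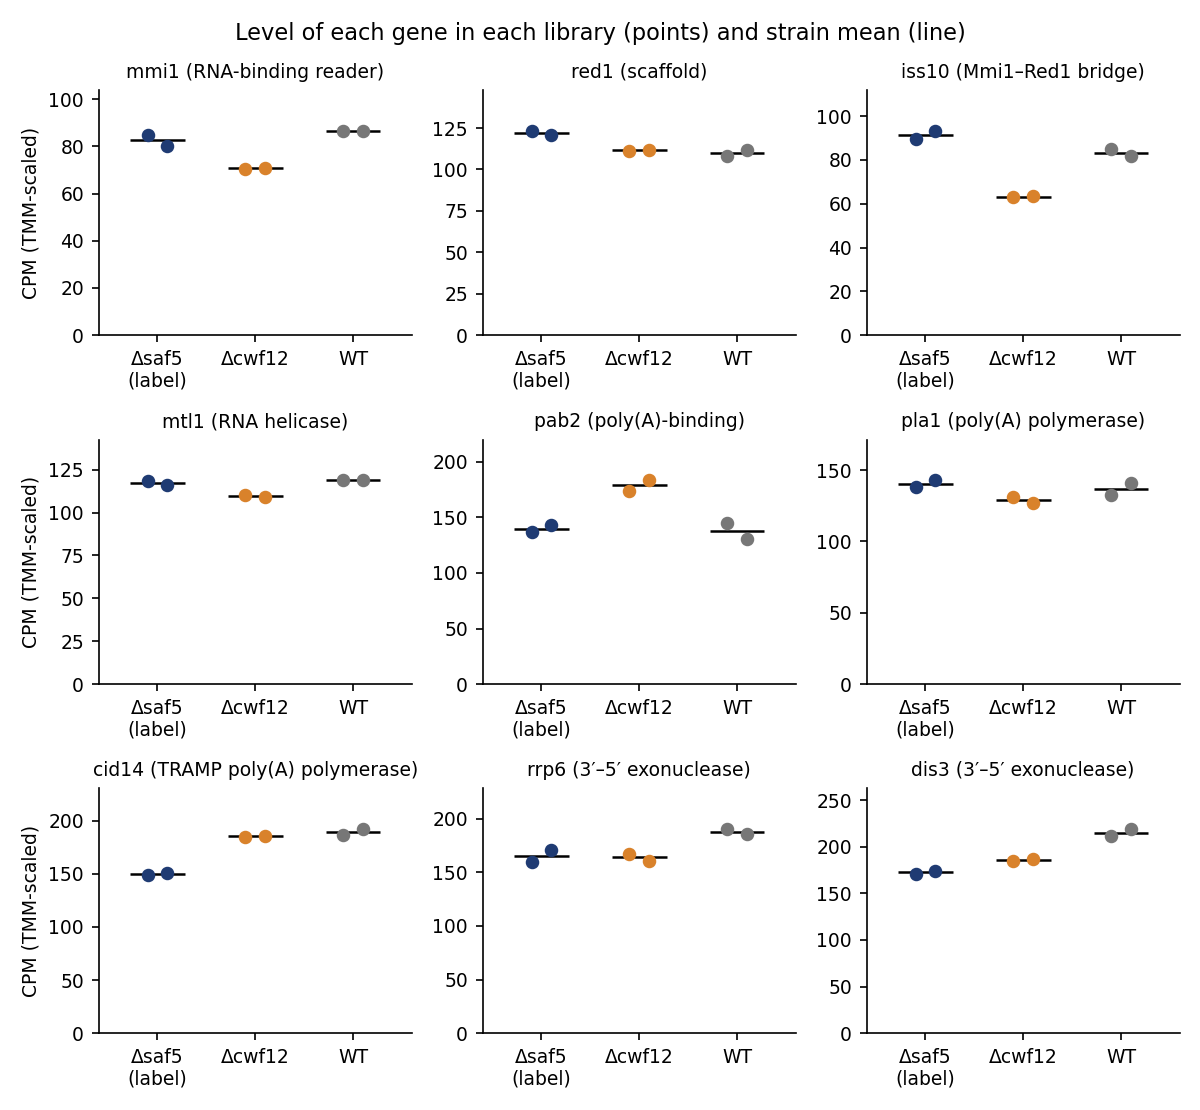
Level of each of the 9 genes in CPM (y axis, from 0) in the libraries labelled *Δsaf5*, in *Δcwf12* and in WT (x axis), with a point per library and a line at the mean of 2. *iss10* and *mmi1* were lowest in *Δcwf12*, *pab2* was highest there, and *cid14* and *dis3* were lowest in the libraries labelled *Δsaf5*.

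With the label *Δsaf5*, 3 of the 9 genes were lower than in WT and 0 were higher. Those that fell were the TRAMP poly(A) polymerase gene *cid14* and both exonuclease genes, *dis3* and *rrp6*. Across all tested genes 25.5% were called lower and 24.7% higher, so 3 of 9 is near what was seen over the genome. The median log2 fold change was -0.02 over the 9 genes and 0.02 over all genes tested. By unadjusted p under 0.05, edgeR found 1 of the 9 higher (*red1*), and DESeq2 called 0 higher and 2 lower after adjustment. In all, DESeq2 called 2294 genes, against 3023 in edgeR after adjustment. The share of all genes by unadjusted p was not computed. The minimum of 2-fold was met by 0 of the 9, both in edgeR with adjusted or unadjusted p and in DESeq2, whereas 8.69% of all genes met it at the adjusted p. The libraries labelled *Δsaf5* and *Δcwf12* were set against the same WT libraries. Between the 2 replicates, the median absolute log2 difference over the tested genes was 0.124 in WT, 0.0975 with the label *Δsaf5* and 0.0674 in *Δcwf12*.

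*mmi1*, which encodes the RNA-binding reader of the pathway, had 85.0 and 80.2 CPM in the libraries labelled *Δsaf5*, against 86.4 and 86.3 CPM in WT. Both values were below WT, but the distance from WT was within the spread of these libraries. The log2 fold change was -0.06 (95% interval -0.21 to 0.08, adjusted p = 0.45, edgeR). The interval held small differences in either direction. *iss10*, the link between Mmi1 and Red1, had 89.6 and 93.1 CPM in the libraries labelled *Δsaf5* and 84.8 and 81.6 CPM in WT (log2 fold change 0.14, 95% interval -0.01 to 0.28, adjusted p = 0.112, edgeR). For *red1*, the scaffold, the libraries labelled *Δsaf5* had 123.0 and 120.8 CPM and WT had 108.2 and 111.6 CPM. The strains did not overlap for either gene, yet neither passed the test after adjustment, with *red1* at a log2 fold change of 0.15 (95% interval, not adjusted for the number of genes, 0.01 to 0.29, adjusted p = 0.0633 in edgeR). *mtl1*, the helicase gene, had 118.4 and 116.2 CPM in the libraries labelled *Δsaf5* and 118.8 and 118.7 CPM in WT (log2 fold change -0.02, 95% interval -0.15 to 0.12).

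Among the genes for making and binding poly(A) tails, *cid14* moved most. It had 149.0 and 150.4 CPM in the libraries labelled *Δsaf5*, against 186.0 and 191.8 CPM in WT. Both libraries were well below both WT libraries, with a log2 fold change of -0.34 ± 0.06 (SE, adjusted p = 0.00104, edgeR), and the level fell by 20.8%. A noncoding RNA on the other strand, SPNCRNA.638, overlaps *cid14* over 774 bases in the annotation and was at or below 0.795 CPM in every library. SPNCRNA.2127, also on the other strand, overlaps *cid14* over 754 bases and is absent from the counts. Since the strand setting of the counting is not given, these counts do not show how overlapping reads were assigned. *pab2*, which coats nuclear poly(A) tails, had 136.7 and 143.1 CPM in the libraries labelled *Δsaf5* and 145.2 and 131.0 CPM in WT, values that overlapped (log2 fold change 0.02, 95% interval -0.14 to 0.18). *pla1*, the canonical poly(A) polymerase gene, had 138.0 and 142.9 CPM in the libraries labelled *Δsaf5* and 132.7 and 140.7 CPM in WT. These values overlapped too, and the log2 fold change was 0.04 (95% interval -0.10 to 0.18).

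Both exonuclease genes were lower. *dis3* had 171.3 and 174.4 CPM in the libraries labelled *Δsaf5*, against 211.5 and 218.8 CPM in WT, a log2 fold change of -0.32 ± 0.07 (SE, adjusted p = 0.00179, edgeR). *rrp6* had 159.8 and 170.8 CPM in the libraries labelled *Δsaf5*, against 190.0 and 185.7 CPM in WT, a log2 fold change of -0.18 ± 0.07 (SE, adjusted p = 0.0372, edgeR). No library labelled *Δsaf5* reached the WT level of either gene. The call on *rrp6* was near the threshold: it was lost in DESeq2 (adjusted p = 0.106), with only *Δsaf5* and WT in the edgeR fit (adjusted p = 0.0761), and without replicate 1 of *Δsaf5* (adjusted p = 0.201, edgeR) or either replicate of *Δcwf12* (adjusted p = 0.0839 and 0.0838, edgeR). *dis3* overlaps *the4*, a gene on the other strand, over 122 bases, and *the4* was lower as well, with a log2 fold change of -0.42 in the libraries labelled *Δsaf5* (adjusted p = 0.00602, edgeR). SPNCRNA.6375 and SPNCRNA.6374, noncoding RNAs on the other strand, overlap *dis3* over 2763 and 253 bases and are absent from the counts. SPNCRNA.2261 and SPNCRNA.2260, absent as well, lie opposite *rrp6* over 1205 and 814 bases. Whether reads were shared in any of these overlaps was not tested.

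**Figure D3:**
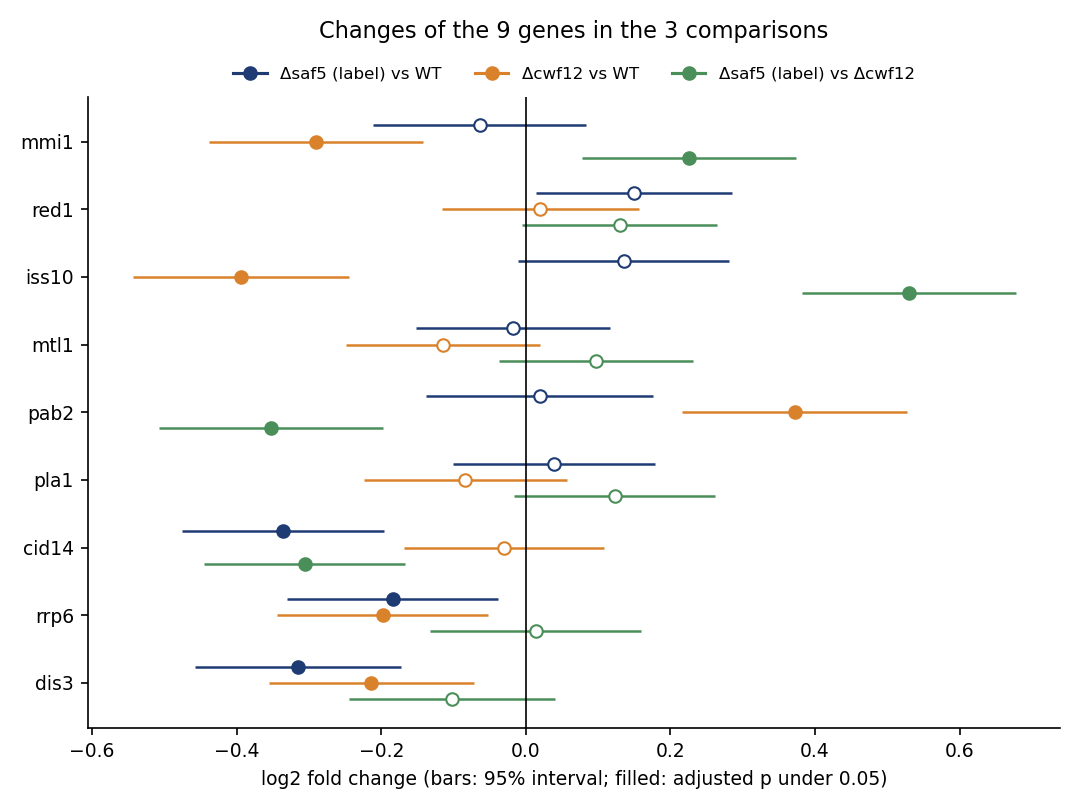
Log2 fold change of each of the 9 genes (x axis, with 95% intervals not adjusted for the number of genes) in 3 comparisons: libraries labelled *Δsaf5* against WT, *Δcwf12* against WT, and libraries labelled *Δsaf5* against *Δcwf12*. Filled points passed an adjusted p of 0.05 in edgeR. *rrp6* and *dis3* lay below 0 in both comparisons with WT, while *iss10* and *pab2* had filled points in *Δcwf12* against WT but not in the libraries labelled *Δsaf5* against WT.

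In *Δcwf12*, 4 of the 9 genes were lower than in WT and 1 was higher. *mmi1* and *iss10*, the reader and its link to Red1, fell, as did *dis3* and *rrp6*, and *pab2* rose. Over all genes tested 25% were called lower and 25.5% higher in this comparison. The median log2 fold change was -0.12 over the 9 genes and -0.005 over all genes tested. None of the 9 changed by 2-fold or more (0 in edgeR with adjusted or unadjusted p, 0 in DESeq2), against 9.95% of all genes at the adjusted p. Leaving out replicate 1 or replicate 2 of *Δcwf12* left 3 of the 5 calls each time, and *dis3* and *rrp6* were the ones lost.

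*iss10* showed the largest decrease of the group. Its levels were 62.9 and 63.7 CPM in *Δcwf12*, against 84.8 and 81.6 CPM in WT, a log2 fold change of -0.39 ± 0.07 (SE, adjusted p = 0.000475, edgeR), and it fell by 23.9%. The *Δcwf12* libraries lay close together and far below WT. *mmi1* had 70.3 and 71.0 CPM in *Δcwf12*, against 86.4 and 86.3 CPM in WT, and the level fell by 18.2% (log2 fold change -0.29, standard error 0.07, adjusted p = 0.00364, edgeR). In both genes the replicates differed by far less than the strains. *red1* had 110.9 and 111.9 CPM in *Δcwf12* and 108.2 and 111.6 CPM in WT, values that overlapped (log2 fold change 0.02, 95% interval -0.12 to 0.16). *mtl1* had 110.2 and 109.1 CPM in *Δcwf12*, below 118.8 and 118.7 CPM in WT, but did not pass the test (log2 fold change -0.12, 95% interval -0.25 to 0.02, adjusted p = 0.141, edgeR).

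*pab2* was the gene that rose. It had 174.1 and 183.4 CPM in *Δcwf12*, against 145.2 and 131.0 CPM in WT, a log2 fold change of 0.37 ± 0.07 (SE, adjusted p = 0.00094, edgeR). The lower *Δcwf12* library was above the higher WT library, although the WT libraries differed by more CPM for *pab2* than for any other of the 9 genes. Leaving out 1 library at a time, the log2 fold change of *pab2* ranged between 0.29 and 0.45. SPNCRNA.1478, a noncoding RNA annotated on the opposite strand, overlaps 730 bases of *pab2* and had 3.23 and 3.37 CPM in *Δcwf12*, against 1.72 and 2.66 CPM in WT. SPNCRNA.5413, also on the opposite strand, overlaps 370 bases of *pab2* and is absent from the counts. The strand setting of the counting is not given, and how reads in these overlaps were assigned was not tested. *cid14* had 184.5 and 185.6 CPM in *Δcwf12*, just under the 186.0 and 191.8 CPM in WT (log2 fold change -0.03, 95% interval -0.17 to 0.11). *pla1* had 131.0 and 127.0 CPM in *Δcwf12* and 132.7 and 140.7 CPM in WT (log2 fold change -0.08, 95% interval -0.22 to 0.06).

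The exonuclease genes were lower in this comparison too, which uses the same WT libraries. *dis3* had 184.6 and 186.4 CPM in *Δcwf12*, against 211.5 and 218.8 CPM in WT, with a log2 fold change of -0.21 ± 0.07 (SE, adjusted p = 0.0159, edgeR). *rrp6* had 166.6 and 160.9 CPM in *Δcwf12*, against 190.0 and 185.7 CPM in WT, with a log2 fold change of -0.20 ± 0.07 (SE, adjusted p = 0.0266, edgeR). All *Δcwf12* libraries lay below WT for both genes. *rrp6* lost its call in DESeq2 (adjusted p = 0.0851), and without replicate 1 or 2 of *Δcwf12* the adjusted p in edgeR became 0.0869 and 0.164 for *rrp6* and 0.114 and 0.0867 for *dis3*. *the4*, the neighbour that overlaps *dis3*, was at -0.88 on the log2 scale in *Δcwf12* against WT (adjusted p = 3.32e-05, edgeR).

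Tested directly against *Δcwf12*, the libraries labelled *Δsaf5* had more *iss10* and *mmi1* RNA and lower levels of *pab2* and *cid14*. These are 2 of 9 genes higher and 2 lower, where 25.4% of all genes tested were higher and 27.8% lower. *iss10* had 89.6 and 93.1 CPM in the libraries labelled *Δsaf5*, against 62.9 and 63.7 CPM in *Δcwf12*, a log2 fold change of 0.53 ± 0.07 (SE, adjusted p = 4.5e-05, edgeR). This was the largest difference between any strains in the group, and the libraries were far apart. For *mmi1* the log2 fold change was 0.23 (standard error 0.07, adjusted p = 0.0144, edgeR). This call was lost in DESeq2 (adjusted p = 0.109) and when replicate 1 of *Δsaf5* (adjusted p = 0.0849, edgeR) or replicate 1 or 2 of *Δcwf12* (adjusted p = 0.0991 and 0.0722, edgeR) was left out. For *pab2* the log2 fold change was -0.35 (standard error 0.07, adjusted p = 0.00133, edgeR) and for *cid14* it was -0.31 (standard error 0.06, adjusted p = 0.00173, edgeR). *rrp6* did not differ detectably from *Δcwf12* (log2 fold change 0.01, 95% interval -0.13 to 0.16), nor did *dis3* (log2 fold change -0.10, 95% interval -0.24 to 0.04). The 2-fold minimum was met by 0 of the 9 in edgeR, with adjusted or unadjusted p, and by 0 in DESeq2, against 8.57% of all genes at the adjusted p.

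Intron numbers are set beside the calls here, and whether introns bear on the changes was not tested. *cid14*, the largest change in the libraries labelled *Δsaf5*, and *iss10*, the largest in *Δcwf12*, have no intron. *mmi1*, with 4 introns, and *pab2*, with 3, moved in opposite directions in *Δcwf12*. *pla1*, with 3 introns and the only GCAAGA 5′ splice site, was not called in any comparison with all 6 libraries in the edgeR fit. Of the 3 genes without an intron, *mtl1* was not called in any comparison either.

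Other genes of the pathway were read from lists, with each list described by its own counts. Among 7 genes, for further subunits of the Red1 and Mtl1 complex and for the Mmi1 partner Erh1, 3 rose and 2 fell in the libraries labelled *Δsaf5*, and 1 was higher in *Δcwf12*, where the other 6 did not pass the test (median log2 fold change 0.03 and 0.10). Over all genes tested, 24.7% were called higher and 25.5% lower with the label *Δsaf5*, and 25.5% and 25% in *Δcwf12*. Of the 3 list genes that rose with the label *Δsaf5*, *red5* and *cbc2* were not called in DESeq2 (adjusted p = 0.229 and 0.191), while *ctr1* was (adjusted p = 0.0425). The large subunit gene of the nuclear cap-binding complex, *cbc1*, had a log2 fold change of -0.50 (adjusted p = 0.000195, edgeR) and *rmn1*, an RNA-binding subunit, of -0.25 (adjusted p = 0.00875, edgeR) in the libraries labelled *Δsaf5*. In *Δcwf12* the gene that passed was *cbc2*, the other cap-binding subunit, at 0.29 (adjusted p = 0.00293, edgeR). Of 11 other exosome subunits and cofactors, 2 fell in the libraries labelled *Δsaf5* and 1 fell in *Δcwf12*, and the other 9 and 10 did not pass the test, which held for 2995 and 2984 of the 6018 genes tested in all (median log2 fold change -0.08 and 0.02). Those that fell were *mpp6*, an exosome-associated RNA-binding protein (-0.56, adjusted p = 0.00284, edgeR), and *rrp42* (-0.26, adjusted p = 0.006, edgeR) in the libraries labelled *Δsaf5*, and *rrp4* (-0.42, adjusted p = 0.000382, edgeR) in *Δcwf12*.

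The TRAMP helicase gene *mtr4* was lower in both comparisons, which share the WT libraries. It had a log2 fold change of -0.50 in the libraries labelled *Δsaf5* (adjusted p = 0.000115, edgeR) and of -0.43 in *Δcwf12* (adjusted p = 0.000247, edgeR), whereas *air1*, its zinc knuckle partner, had 0.14 and 0.16 (adjusted p = 0.134 and 0.1, edgeR). In CCR4-NOT, the deadenylase complex that Mmi1 binds, 3 of 8 genes were lower in the libraries labelled *Δsaf5*, where the other 5 did not pass the test, and 3 were lower and 1 higher in *Δcwf12*. The shares called lower among all genes tested were 25.5% and 25%. The scaffold gene *not1* was lower in both, by a log2 fold change of -0.51 in the libraries labelled *Δsaf5* (adjusted p = 0.00016, edgeR) and of -0.61 in *Δcwf12* (adjusted p = 3.22e-05, edgeR). *not3* had -0.29 in the libraries labelled *Δsaf5* (adjusted p = 0.00347, edgeR) and *rcd1* -0.65 in *Δcwf12* (adjusted p = 0.000369, edgeR). Of the exonuclease gene *dhp1* and its partner *din1*, *din1* was lower in the libraries labelled *Δsaf5* (-0.29, adjusted p = 0.0144, edgeR) and both were lower in *Δcwf12* (*din1* -0.38, adjusted p = 0.00304, and *dhp1* -0.26, adjusted p = 0.00702, edgeR). The call on *din1* in the libraries labelled *Δsaf5* was lost in DESeq2 (adjusted p = 0.0764). Over both comparisons with WT the log2 fold changes of the machinery genes in these lists lay between -0.65 and 0.53, short of 2-fold.

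**Figure D4:**
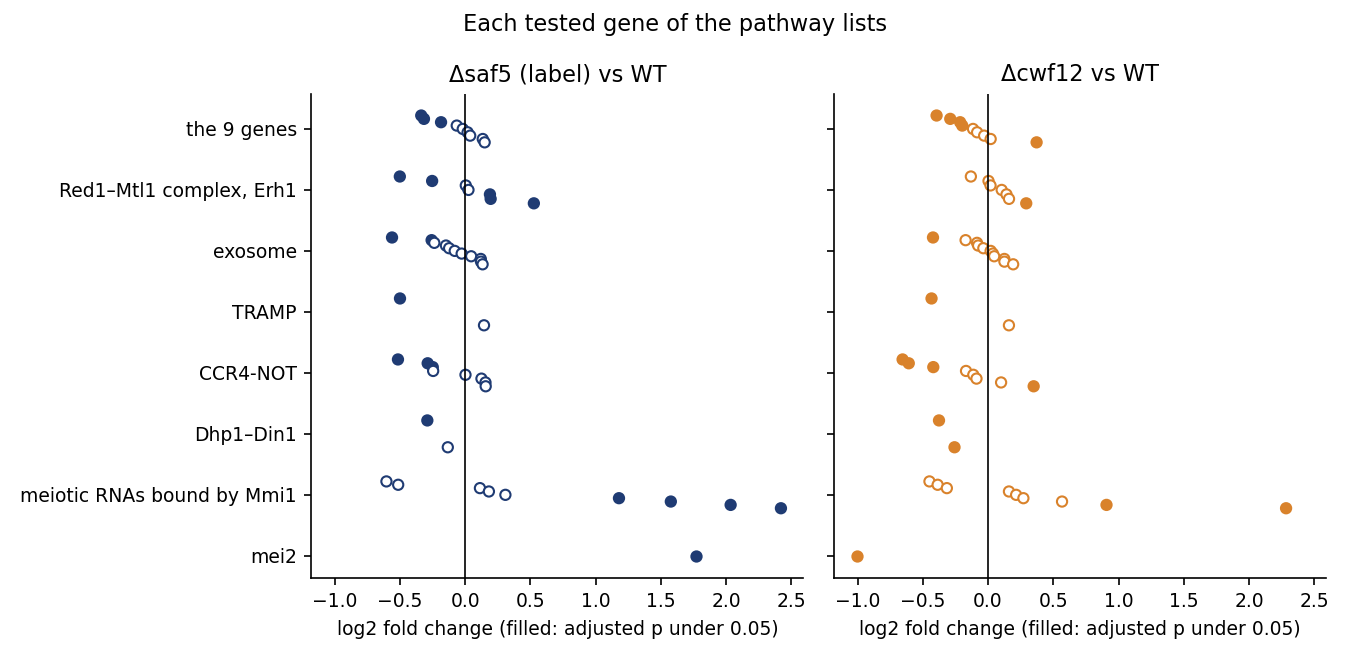
Log2 fold change (x axis) of every gene in the 9-gene group and in the other pathway lists (rows), in the libraries labelled *Δsaf5* against WT (left) and in *Δcwf12* against WT (right). Filled points passed an adjusted p of 0.05 in edgeR. The machinery genes lay between -0.65 and 0.53. The highest of the meiotic RNAs was *meu13*, at 2.42 (left) and 2.28 (right), which is listed because the study names it from these libraries. *mei4*, *ssm4*, *rec8*, *spo5* and *crs1* lay between -0.60 and 0.31 (left) and between -0.45 and 0.22 (right).

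Of 9 RNAs that Mmi1 binds, including *sme2*, 4 rose in the libraries labelled *Δsaf5* and 2 rose in *Δcwf12*, and the other 5 and 7 did not pass the test. Among all genes tested, 24.7% and 25.5% were called higher in these comparisons. *rec10*, *bqt1* and *meu13* are on this list because the study names them from these libraries, so their direction is not independent evidence. *sme2*, named after its values were seen, had 4.08 and 2.999 CPM in the libraries labelled *Δsaf5* and 0.959 and 1.64 CPM in *Δcwf12*, against 1.08 and 0.637 CPM in WT, and was called in the libraries labelled *Δsaf5* (log2 fold change 2.03, adjusted p = 0.000988, edgeR). *rec10* had log2 fold changes of 1.58 and 0.91 in these comparisons (adjusted p = 2.79e-06 and 0.000239, edgeR) and *meu13* of 2.42 and 2.28 (adjusted p = 0.00017 and 0.000224, edgeR). *bqt1* was called in the libraries labelled *Δsaf5* (log2 fold change 1.18, adjusted p = 0.00581, edgeR). The WT level of *meu13* rests on only 5 and 12 counts, that of *sme2* on 10 and 6, and that of *bqt1* on 22 and 18. The other targets on the list did not move together: *mei4*, *ssm4* and *crs1* had log2 fold changes of 0.11, 0.18 and 0.31 in the libraries labelled *Δsaf5*, and *rec8* and *spo5* of -0.60 and -0.51, with none called in either comparison with WT. *mei2*, which encodes the protein that traps Mmi1 in meiosis, had 15.6 and 15.4 CPM in the libraries labelled *Δsaf5* and 2.53 and 1.94 CPM in *Δcwf12*, against 3.34 and 5.74 CPM in WT. It was thus higher in the libraries labelled *Δsaf5* (log2 fold change 1.77, adjusted p = 6.03e-05, edgeR) and lower in *Δcwf12* (-1.01, adjusted p = 0.0168, edgeR).

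The hexamer that Mmi1 binds was counted in the annotated transcripts, as TNAAAC on the sense strand with overlapping matches allowed. The 9 machinery transcripts held between 0.411 per kb (*rrp6*, 1 match) and 4.09 per kb (*red1*, 10 matches), with a median of 2.58 per kb. The median over 5113 coding genes was 1.64 per kb, and 89.4% of them held at least 1 match. *red1*, *iss10* (3.54 per kb) and *pab2* (3.18 per kb) lay above the 90th percentile of coding genes, 3.17 per kb, and *mmi1* itself held 8 matches, or 2.91 per kb. The 8 coding target transcripts held between 4.35 and 10.6 per kb, above each of the 9 machinery transcripts. The targets were listed as RNAs that Mmi1 binds, so that list was not chosen independently of its hexamer. A match is a description of the sequence and not a binding site.

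**Figure D5:**
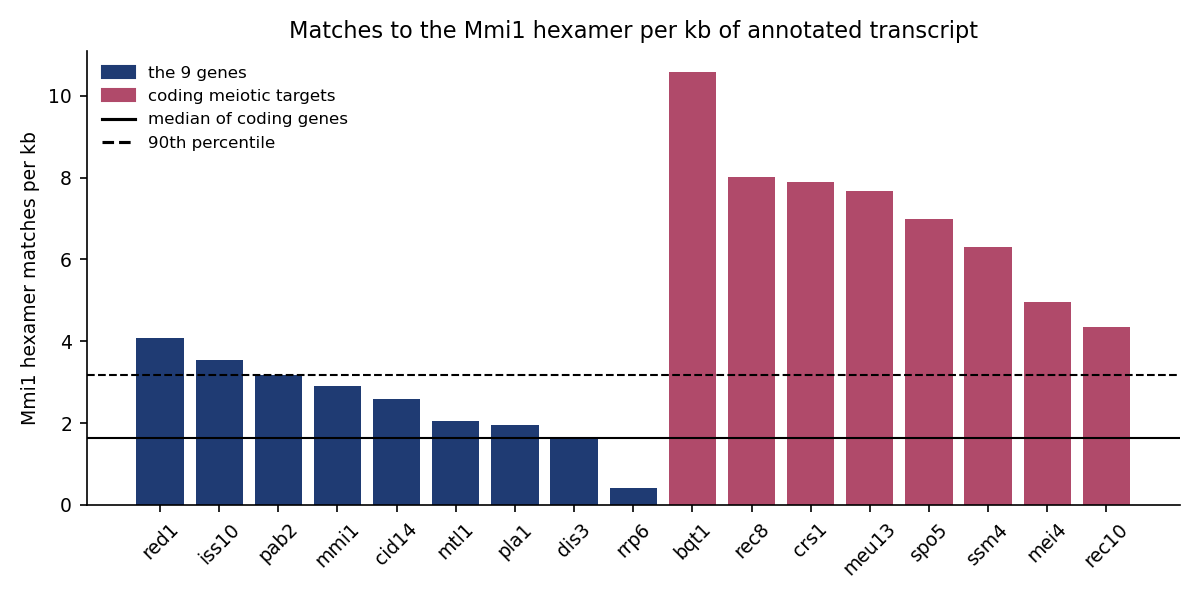
Matches to the Mmi1 hexamer per kb of annotated transcript (y axis, from 0) in the 9 machinery genes (left) and in 8 coding meiotic targets (right), with the median (solid line, 1.64 per kb) and the 90th percentile (dashed line, 3.17 per kb) of coding genes. All 8 targets lie above the dashed line, against 3 of the 9 machinery genes. The targets were listed as RNAs that Mmi1 binds, not independently of the hexamer.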

How the data were processed

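RNA sequencing libraries of 3 strains, 2 each, were analysed. The authors deposited whole-number read counts per gene, not normalized, with a listed gene length. The submitters' processing notes name Trimmomatic, STAR, HTSeq, DESeq2 and the genome build ASM294v2. The strand setting and feature type of the counting are not given in the sources used here, so that reads of overlapping genes on opposite strands may not have been told apart. Library totals were 9113139 to 12054198 counts, and the number of libraries limits the precision.

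From the counts, genes were filtered with filterByExpr (6018 of 7268 kept), scaled with TMM factors and tested with edgeR 4.0.16 in R 4.3.3 (quasi-likelihood test, 1 coefficient per strain, all 6 libraries in 1 fit, Benjamini-Hochberg adjustment, threshold 0.05). Log2 fold changes have standard errors and 95% intervals from the same fit. The scripts were tested on simulated data. The study used DESeq2, and DESeq2 1.42.0 was run as an alternative, as were other scaling factors, no filter, a minimum of 10 counts in every library, fits on the strains compared, a replicate block and leaving out each library. Gene structures, introns and hexamer matches were read from RefSeq ASM294v3, to which 6846 of the 7268 gene identifiers matched. All coordinates are those of ASM294v3 and none were converted. The 9 genes are all described, and from each pathway list up to 2 genes with the smallest adjusted p past the threshold are named per comparison with WT, beside the deleted genes and the 3 genes whose centred log2 levels lie nearest to those of *mmi1*, and other list genes named were added after their values were seen. The 9 genes and the lists were chosen with earlier results of these data known.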

Additional observations from a re-analysis of the deposited data

Results flagged for a closer look

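The libraries labelled *Δsaf5* and *Δcwf12* differed from each other by the direct test in 4 of the 9 genes, where 25.4% of all genes tested were higher and 27.8% lower. The log2 fold change, libraries labelled *Δsaf5* over *Δcwf12*, was 0.53 for *iss10* (adjusted p = 4.5e-05), 0.23 for *mmi1* (adjusted p = 0.0144), -0.35 for *pab2* (adjusted p = 0.00133) and -0.31 for *cid14* (adjusted p = 0.00173), all in edgeR. The call on *mmi1* was lost in DESeq2 (adjusted p = 0.109) and without replicate 1 of *Δsaf5* (adjusted p = 0.0849, edgeR) or replicate 1 or 2 of *Δcwf12* (adjusted p = 0.0991 and 0.0722, edgeR). The *saf5* reads in the libraries labelled *Δsaf5* and the difference in mating-type transcripts stand beside these values, and their part was not tested.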

How the results depend on the processing

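Over the 9 genes and 3 comparisons, 154 of 162 values kept their direction and their side of the threshold with all libraries in the fit, 5 lost a call, 3 gained one and 0 changed direction. With 1 library left out, where the lone library is assumed to vary like the others, 144 of 162 did so, 10 lost a call, 3 gained one and 5 changed direction. Called in all of these fits were *dis3* and *cid14* in the libraries labelled *Δsaf5* against WT, *mmi1*, *iss10* and *pab2* in *Δcwf12* against WT, and *iss10*, *pab2* and *cid14* in the libraries labelled *Δsaf5* against *Δcwf12*. Calls were gained by *red1* in the libraries labelled *Δsaf5* against WT, and by *red1* and *pla1* in these libraries against *Δcwf12*. The changes of direction were in values that were not called. With 1 library left out, *pab2* ranged between -0.0509 and 0.0939 and *pla1* between -0.0043 and 0.0846 in the libraries labelled *Δsaf5* against WT. *red1* ranged between -0.00431 and 0.0316 in *Δcwf12* against WT, and *rrp6* between -0.0346 and 0.0619 in the libraries labelled *Δsaf5* against *Δcwf12*.

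The number of the 9 genes called in *Δcwf12* against WT ranged between 3 and 5 with 1 library left out, and was 3 without either *Δcwf12* library, where the count over all genes was 2131 without replicate 1 and 2072 without replicate 2, against 3034 with all libraries. In the libraries labelled *Δsaf5*, against WT and against *Δcwf12*, the number of the 9 genes called also varied with the library left out. The count over all genes varied as well. In the libraries labelled *Δsaf5* against *Δcwf12*, 3200 genes were called in all, with a range of 2041 to 3800 when 1 library was left out and 2041 without replicate 1 of *Δcwf12*. The replicate numbers were not taken as pairs, since the correlations of the deviations of same-numbered libraries were 0.0523, 0.00339 and -0.0147 in the 3 comparisons. With the replicate block, 2, 5 and 4 of the 9 genes were called, and 2951, 2977 and 3126 of all genes, and *rrp6* was the gene no longer called (adjusted p = 0.0552, edgeR). The causes were not tested. Calls on single genes of the other pathway lists were not recomputed with a library left out.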

Other observations

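Other annotated genes overlap the machinery genes. On the other strand, SPNCRNA.6803 and SPNCRNA.6802 overlap *mmi1* over 1526 and 403 bases, and SPNCRNA.3168 overlaps *iss10* over 622 bases. These noncoding RNAs are absent from the counts, and how reads in the overlaps were assigned was not tested. SPNCRNA.1398, a noncoding RNA on the other strand that shares 8 bases with *pla1*, had 11.3 and 12.8 CPM in the libraries labelled *Δsaf5* and 23.6 and 25.8 CPM in *Δcwf12*, against 8.19 and 5.84 CPM in WT. It was higher in both comparisons (log2 fold change 0.78, adjusted p = 0.0049, and 1.81, adjusted p = 3.64e-06, edgeR), while *pla1* was called in neither. SPNCRNA.1478, which lies opposite *pab2*, had 4.97 and 4.24 CPM in the libraries labelled *Δsaf5*, against 1.72 and 2.66 CPM in WT (log2 fold change 1.07, adjusted p = 0.00735, edgeR), where *pab2* itself had a log2 fold change of 0.02.

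Over the 6 libraries, the gene whose pattern lay nearest to that of *mmi1* among 6018 genes was *mmp1* (distance 0.0374 between the log2 levels after centring each gene), followed by *man1* (0.0682) and SPNCRNA.1597 (0.0799). Across 4950 coding genes, which are not independent replicates, the log2 fold change correlated weakly with the listed gene length, with a Spearman rho of -0.129 in the libraries labelled *Δsaf5* against WT and of -0.149 in *Δcwf12* against WT.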
